A study of Rattus norvegicus with 36 samples.

Results

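The microRNAs described here are miR-195-5p, miR-497-5p, miR-322-5p and miR-503-5p, relatives of the miR-15/16 family that are encoded away from chromosome 2. They were taken by name and make up 4 of the 835 names in the deposited table, of which 576 are miRBase names. Small RNA was sequenced from a piece of each male rat's descending thoracic aorta. The parental Dahl salt-sensitive strain (SS) was set against 2 congenic strains on the SS background, in which a part of chromosome 2 comes from the Brown Norway strain. S2Ba carries the distal portion and S2Bb the middle segment. Rats of each strain ate a normal-salt diet or a high-salt diet with 4% NaCl, from an age of 4 to 6 weeks until they were 12 to 13 weeks old.

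Without a pair of identical columns, 32 libraries remained, each from 1 animal. On each diet there were 5 of SS, 5 of S2Ba and 6 of S2Bb. The identical columns carried normal-salt labels of different strains (SS replicate 1, S2Ba replicate 4), and both gave 561 nRPM (the authors' normalized reads, scaled per M reads, with M for mega) of miR-195-5p, 454 of miR-497-5p, 36.6 of miR-322-5p and 0.529 of miR-503-5p. Depth ran from 2.31 to 42.4 M reads, with a median of 19.4 M. Libraries of 2 animals stood apart. SS high-salt replicate 2 was the shallowest, and S2Bb normal-salt replicate 2 had the lowest miR-195-5p and miR-497-5p of all 32 libraries. Differences, ratios and correlations that rest on them are given with and without them. The tissue label was checked against smooth muscle microRNAs, of which all 4 were detected in every library, with a summed level of 237274 to 742576 nRPM. That sum is almost wholly miR-143-3p, with a mean of 551217 nRPM in a mean sum of 557730 nRPM. In bulk tissue, fewer cells of a type and less RNA per cell cannot be told apart.

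MicroRNAs are short RNAs cut from hairpin precursors, and they lower the output of messenger RNAs that pair with their seed, the bases near the 5′ end. Relatives that share a seed can bind the same target sites. The miR-15/16 family is known for holding back the cell cycle through targets such as cyclins and Bcl2, and the miR-195 and miR-497 pair is known in muscle and vessels for restraining proliferation, while miR-322 (the rodent counterpart of human miR-424) and miR-503 are processed from an X-linked transcript.

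The mature sequences are shown because the seed is what joins these microRNAs to the family, and because it separates 1 of them from the rest. They are from RefSeq on the GRCr8 build, matched by name for all 4, with the seed (bases 2 to 8) in capitals. The seed AGCAGCA is shared by 3 of the 4 and by miR-16-5p and miR-15b-5p of chromosome 2.
miR-195-5p: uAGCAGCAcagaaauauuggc
miR-497-5p: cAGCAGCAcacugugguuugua
miR-322-5p: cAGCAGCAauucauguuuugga
miR-16-5p: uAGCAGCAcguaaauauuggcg
miR-15b-5p: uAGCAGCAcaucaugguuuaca
The remaining member carries AGCAGCG.
miR-503-5p: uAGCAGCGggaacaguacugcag

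The 4 come from 2 loci. Mature miR-497-5p lies at chr10:55450172-55450193 and miR-195-5p at chr10:55450509-55450529, both on the plus strand, with 255 bases between their hairpins. No RefSeq gene overlapped this pair, which sits between Bcl6b and C10h17orf49. On the minus strand of the X chromosome, miR-503-5p lies at chrX:137725899-137725921 and miR-322-5p at chrX:137726198-137726219, with 220 bases between their hairpins, inside the long noncoding RNA gene LOC102550366 and beside Mir351 and Mir542. Counted from the 5′ end with the seed included, the sequences were alike to different degrees. miR-195-5p was identical to the chromosome 2 microRNA miR-16-5p at 19 of 21 positions, but to its own neighbour miR-497-5p at 12 of 21. Within the X-linked pair, miR-322-5p and miR-503-5p were identical at 11 of 22 positions. Whether reads were exchanged between miR-195-5p and miR-16-5p in the authors' counting was not tested.

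The levels of the 4 spanned more than 3 orders of magnitude. Over the 32 libraries, miR-195-5p averaged 898 ± 237 nRPM (SD, n = 32) and ranked 41 of the 835 names. Its neighbour miR-497-5p averaged 561 ± 164 nRPM (SD, n = 32) and ranked 49. The X-linked miR-322-5p was far lower, at 32.4 ± 9.20 nRPM (SD, n = 32) and rank 131. The level of miR-503-5p was 0.299 ± 0.186 nRPM (SD, n = 32), which put it at rank 535. Since the mature forms are 21 to 23 bases long, these levels were compared without a correction for length.

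Among all reads of the 6 microRNAs printed above, the chromosome 2 member miR-16-5p held 62.3% ± 4.97 (SD, n = 32), with a mean level of 2443 nRPM. miR-195-5p held 22.7% ± 4.22 and miR-497-5p 14.004% ± 2.53 (SD, n = 32 each). The share of miR-322-5p was 0.837% ± 0.237 (SD, n = 32), that of miR-15b-5p 0.237% ± 0.0893, and that of miR-503-5p 0.00831% ± 0.00659. The family member miR-15a-5p was not analysed here.

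Of the members, 3 passed the filter on low values (at least 1 nRPM in at least 5 libraries) and are among the 484 names tested. miR-503-5p did not pass and is not counted among the tested members, so its reads, levels and differences are given apart.

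**Figure D1:**
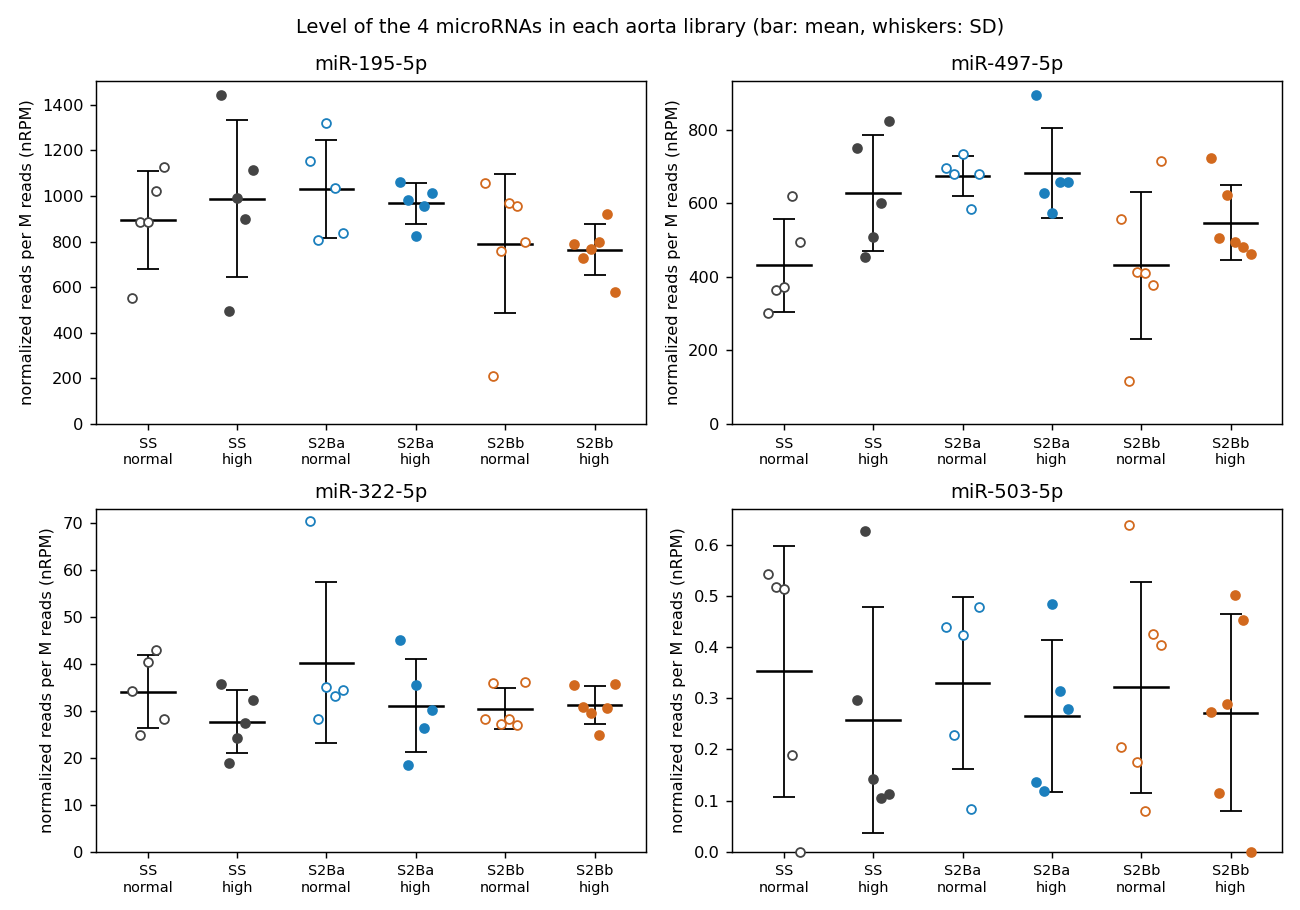
Level of each member in nRPM (vertical axes, linear) in every library, by strain and diet. Open circles are normal-salt and filled circles high-salt animals, the horizontal bar is the group mean and whiskers are the SD. Groups overlap in all 4 panels, and 1 S2Bb normal-salt library at 212 nRPM of miR-195-5p and 117 nRPM of miR-497-5p lies below the rest.

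miR-195-5p, known for restraint of cyclins and other cell-cycle genes, varied more within groups than between them. In SS on normal salt the 5 libraries held 554, 887, 885, 1022 and 1128 nRPM. On high salt the SS libraries held 1443, 496, 990.4, 899 and 1114 nRPM, the value of 496 coming from the shallowest library. The normal-salt values lay inside the range spanned on high salt. S2Ba libraries held 1152, 807, 1321, 1034 and 837 nRPM on normal salt and 1064, 984, 823, 956 and 1015 nRPM on high salt. S2Bb libraries ran from 212 through a median of 877 to 1058 nRPM on normal salt, and from 578 through 778 to 921 nRPM on high salt. Every pair of groups compared overlapped.

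Ordered by mean level of miR-195-5p, the groups were S2Ba on normal salt at 1030.15 ± 216 nRPM (SD, n = 5), SS on high salt at 988 ± 344 (SD, n = 5), S2Ba on high salt at 968 ± 90.5 (SD, n = 5), SS on normal salt at 895 ± 216 (SD, n = 5), normal-salt S2Bb at 792 ± 305 (SD, n = 6) and high-salt S2Bb at 764 ± 112 (SD, n = 6). Each step between neighbours in this order was smaller than the SD of either group. S2Bb had the lowest means on both diets, and on high salt its log2 difference from SS was -0.30 ± 0.28 (SE), with a 95% interval of -0.88 to 0.27. Without the shallowest SS library that difference was -0.53 (limma adjusted p = 0.390 with both libraries that stood apart left out).

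miR-497-5p, cut from the same stretch of chromosome 10, was the member with the widest differences between groups on the log2 scale. The SS libraries on normal salt held 303, 363, 372, 620.2 and 496 nRPM. On high salt they held 751, 455, 508, 601 and 823 nRPM. The high-salt values lay mostly higher, but the ranges overlapped. S2Ba libraries held 695, 678, 733, 584 and 679.7 nRPM on normal salt and 893, 628, 573, 658 and 657 nRPM on high salt. In S2Ba the diets overlapped almost wholly, apart from replicate 1 on high salt at 893 nRPM. S2Bb libraries ran from 117 through a median of 411 to 714 nRPM on normal salt, and from 461 through 499 to 724 nRPM on high salt. On normal salt 4 of the 5 SS libraries lay below the lowest S2Ba library, and replicate 5 at 620.2 nRPM lay inside the S2Ba range.

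The order of miR-497-5p means was S2Ba on high salt at 682 ± 123 nRPM (SD, n = 5), S2Ba on normal salt at 674 ± 54.7 (SD, n = 5), SS on high salt at 628 ± 157 (SD, n = 5), S2Bb on high salt at 548 ± 103 (SD, n = 6), normal-salt S2Bb at 431 ± 199 (SD, n = 6) and SS on normal salt at 431 ± 127 (SD, n = 5). The steps between neighbours were within the SD of both groups, except that the step between the S2Bb diets was larger than the SD on high salt and smaller than that on normal salt.

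miR-322-5p, encoded on the X chromosome and known as a brake on cyclin D1 and Cdc25a, had group means close together. SS libraries held 34.2, 24.8, 40.4, 42.9 and 28.2 nRPM on normal salt, and 35.7, 18.8, 24.3, 27.4 and 32.3 nRPM on high salt. S2Ba libraries held 70.4, 28.4, 34.97, 33.2 and 34.4 nRPM on normal salt, and 45.0, 18.5, 35.4, 26.4 and 30.2 nRPM on high salt. Apart from S2Ba normal-salt replicate 1 at 70.4 nRPM, these 4 groups lay between 18.5 and 45.0 nRPM and overlapped. S2Bb libraries ran from 27.1 through a median of 28.2 to 36.2 nRPM on normal salt, and from 24.8 through 30.8 to 35.7 nRPM on high salt.

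The means of miR-322-5p ran from 40.3 ± 17.05 nRPM (SD, n = 5) in S2Ba on normal salt and 34.1 ± 7.74 (SD, n = 5) in SS on normal salt, through 31.2 ± 4.06 (SD, n = 6) in S2Bb on high salt, 31.1 ± 9.92 (SD, n = 5) in S2Ba on high salt and 30.5 ± 4.36 (SD, n = 6) in normal-salt S2Bb, to 27.7 ± 6.63 (SD, n = 5) in SS on high salt. No step between neighbours exceeded the SD of either group.

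miR-503-5p, the member with the deviating seed, was near the limit of detection. Its reads per library were 6, 8, 8, 3 and 0 in SS on normal salt, and 8, 2, 2, 2 and 2 in SS on high salt. They were 6, 4, 10, 2 and 10 in S2Ba on normal salt and 2, 2, 9, 6 and 6 on high salt. In S2Bb they ran from 2 to 16 on normal salt and from 0 to 10 on high salt. Fewer than 3 reads were found in 11 of the 32 libraries, and all 6 groups overlapped. Group means ran from 0.257 ± 0.221 nRPM (SD, n = 5) in SS on high salt to 0.352 ± 0.245 nRPM (SD, n = 5) in SS on normal salt. In SS normal-salt replicate 6 the count of 0 allows a level of up to 0.464 nRPM, and in S2Bb high-salt replicate 6 up to 0.173 nRPM, at 3 reads and for counting error only. In a limma fit with no filter on low values, its differences in the 10 comparisons ran from -0.10 to 0.05 on the log2(nRPM + 1) scale, with SE of 0.08 to 0.19 and adjusted p of 0.623 to 1. That scale understates changes of so rare a microRNA.

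None of the 3 tested members passed an adjusted p of 0.05 in any comparison with limma and Benjamini-Hochberg adjustment over all 484 names tested. Of their 30 tests 2 had an unadjusted p under 0.05, both of miR-497-5p. With edgeR's quasi-likelihood test, DESeq2 and limma-voom with sample weights, each run on recovered reads, the count of members called was also 0 in every comparison. These zeros stand against the share of all names called. For high against normal salt, 0 of 3 members were called in SS, where 1.03% of names were called, in S2Ba, where 0.826% were, in S2Bb, where 5.99% were, and in the average over the 3 strains, where 13.4% were. For S2Ba minus SS the count was 0 of 3 on normal salt against 0.413% of names, and 0 of 3 on high salt against 0.207%. For S2Bb minus SS it was 0 of 3 on normal salt against 0.826%, and 0 of 3 on high salt against 0%. The diet response of S2Ba minus that of SS had 0 of 3 members against 0% of names, and that of S2Bb minus SS 0 of 3 against 0.413%. Against limma backgrounds this low a count of 0 of 3 is close to the background. DESeq2 and limma-voom called more names in most comparisons. For diet in SS, S2Ba, S2Bb and the average, DESeq2 called 20 of 426, then 14, 41 and 87 of 483 names. There limma-voom called 2, 25, 63 and 110 of 484. For S2Ba minus SS on normal and high salt, DESeq2 called 18 and 31 of 483 and limma-voom 10 and 8 of 484. For S2Bb minus SS on normal salt the counts were 15 of 305 and 0 of 484. In the comparisons with no call at all in limma, 56 names for S2Bb minus SS on high salt and 36 for the S2Ba diet response had an unadjusted p under 0.05. There DESeq2 called 2 and 3 names, limma-voom 3 and 0, and edgeR 0 and 0.

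**Figure D2:**
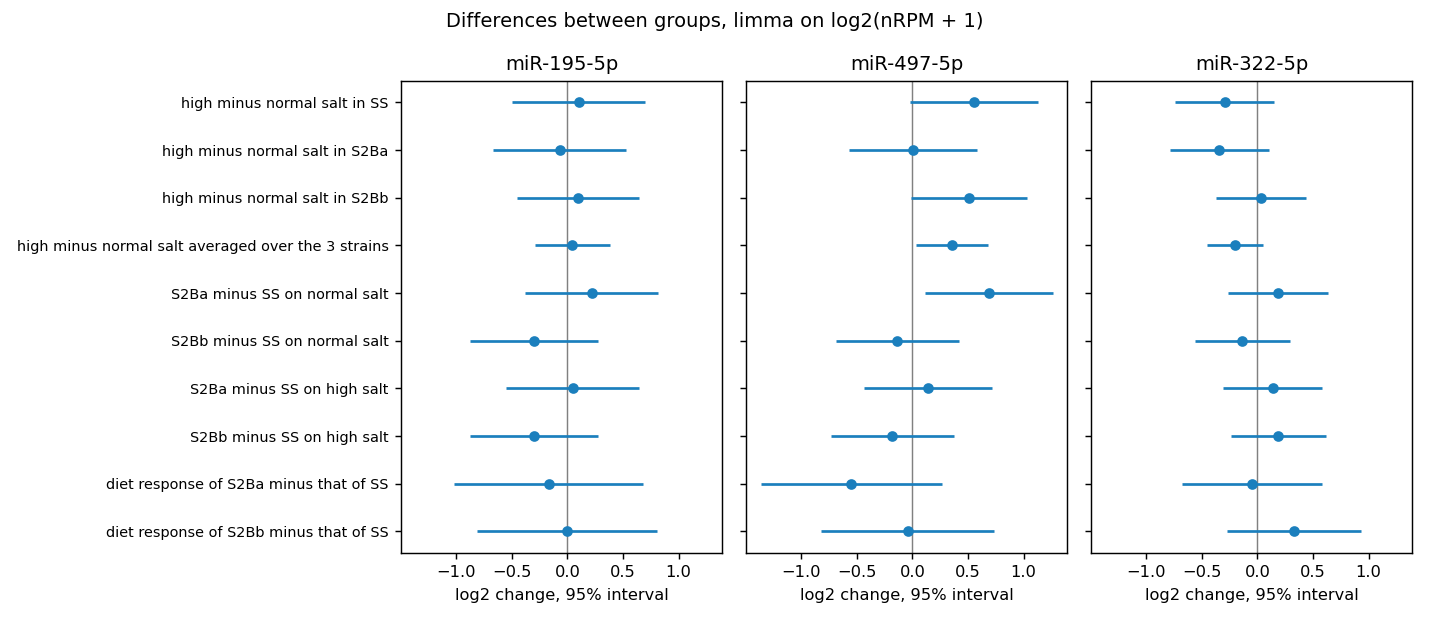
Log2 differences of the 3 tested members in the 10 comparisons (horizontal axes, log2 of nRPM + 1), as points with 95% intervals from limma. Only the miR-497-5p intervals for the averaged diet comparison (0.03 to 0.68) and for S2Ba minus SS on normal salt (0.11 to 1.26) lie wholly above 0, before any adjustment.

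Both unadjusted differences of miR-497-5p were upward. The log2 difference between S2Ba and SS on normal salt was 0.69 ± 0.28 (SE), with a 95% interval of 0.11 to 1.26 and a limma adjusted p of 0.223. Averaged over the strains, high salt minus normal salt was 0.36 ± 0.16 (SE), with an interval of 0.03 to 0.68 and a limma adjusted p of 0.145. By strain the diet difference was 0.55 ± 0.28 in SS (adjusted p = 0.282), 0.51 ± 0.26 in S2Bb (adjusted p = 0.334) and 0.00 ± 0.28 in S2Ba (adjusted p = 1), all in limma. The diet difference of S2Ba minus that of SS was -0.55 ± 0.40 (SE), with an interval of -1.36 to 0.26 and a limma adjusted p of 0.807, so the strains were not shown to differ. With SS high-salt replicate 2 and S2Bb normal-salt replicate 2 both left out, a choice made after the values were seen, S2Ba minus SS on normal salt stayed at 0.69 and its limma adjusted p became 0.0320, the only one of 47 alternatives to pass (adjusted p 0.0320 to 0.558). Neither left-out library belongs to the groups compared there. They enter through the shared estimate of the spread and through the set of names tested, 478 in place of 484. Without them limma called 12 of the 478 names in this comparison, against 2 of 484 with them. Without both, the diet difference was 0.17 in S2Bb, against 0.51 with them, 0.66 in SS and 0.28 on average (limma adjusted p = 0.0697).

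Among markers of other cell types, the endothelial arms miR-126a-3p and miR-126a-5p, both detected in all libraries, had differences of opposite sign for S2Ba minus SS on normal salt and for diet in S2Bb. The abundant arm miR-126a-5p, at a mean of 2167 nRPM, had log2 differences of 0.70 ± 0.27 (SE) and 0.78 ± 0.25 (SE) there, with limma adjusted p of 0.207 and 0.0515. The rarer arm miR-126a-3p, at 242 nRPM, differed by -0.11 ± 0.20 (SE) and -0.10 ± 0.18 (SE). Their sum, which follows miR-126a-5p, was 2099 to 4767 nRPM in S2Ba against 1441 to 2757 nRPM in SS on normal salt, and in S2Bb it was 1429 to 2691.1 nRPM on normal against 2237 to 3259 nRPM on high salt. In SS it was 1441 to 2757 nRPM on normal and 793 to 2726 nRPM on high salt, with means of 1963 and 1943 nRPM.

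The striated muscle list separated the normal-salt groups of S2Ba and SS fully, in the other direction. Its summed level, from 7 of 7 listed names and mostly miR-133a-3p, was 453 to 522 nRPM in S2Ba against 537 to 744 nRPM in SS. Its defining member miR-1-3p was at most 0.961 nRPM in any library, and miR-206-3p was at 0 in all but 4. The red blood cell sum, from 3 of 4 names, was 3.63 to 36.2 nRPM in S2Ba against 4.26 to 14.1 nRPM in SS, with means of 18.2 and 7.81 nRPM. The white blood cell sum, from 4 of 5 names, was 128 to 195 nRPM against 102 to 216 nRPM. The smooth muscle sum was 340943 to 606056 nRPM in S2Ba against 483994 to 718198 nRPM in SS. Apart from striated muscle, these lists overlapped between the strains. Depth was 6.56 to 17.9 M reads in SS and 10.8 to 24.6 M reads in S2Ba on normal salt. The part of these lists and of depth in the miR-497-5p values was not tested.

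No difference of the other tested members passed. Across the 10 comparisons, miR-195-5p had log2 differences of -0.30 to 0.22 with limma adjusted p of 0.59 to 0.991. For miR-195-5p the diet difference averaged over strains was 0.04 ± 0.17 (SE), with a 95% interval of -0.29 to 0.38. Without both libraries that stood apart its differences ran from -0.58 to 0.33, with limma adjusted p of 0.390 to 0.987. In that setting high salt minus normal salt of miR-195-5p was 0.33 in SS, against 0.10 with them, and the diet response minus that of SS was -0.40 in S2Ba, against -0.17, and -0.58 in S2Bb, against -0.00. For miR-322-5p the differences ran from -0.34 to 0.33 with limma adjusted p of 0.284 to 0.962. High salt minus normal salt of miR-322-5p was -0.29 ± 0.22 (SE) in SS, -0.34 ± 0.22 in S2Ba and 0.03 ± 0.20 in S2Bb, and in SS it was -0.17 without the libraries that stood apart. In that setting the differences of miR-322-5p ran from -0.34 to 0.25, with S2Ba and S2Bb minus SS on high salt at 0.01 and 0.06 in place of 0.14 and 0.19. The average diet difference of miR-322-5p over the strains was -0.20 ± 0.12 (SE), with a 95% interval of -0.45 to 0.05.

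The pair on chromosome 10 was also compared as a ratio within each library, which does not depend on scaling. miR-195-5p exceeded miR-497-5p in all 32 libraries, by 1.67 ± 0.415 times (SD, n = 32) and from 1.09 to 2.52 times. The ratio averaged 2.11 ± 0.354 (SD, n = 5) in SS on normal salt and 1.93 ± 0.494 (SD, n = 6) in normal-salt S2Bb. It was 1.56 ± 0.371 (SD, n = 5) in SS on high salt, 1.53 ± 0.297 (SD, n = 5) in S2Ba on normal salt, 1.44 ± 0.150 (SD, n = 5) in S2Ba on high salt and 1.43 ± 0.302 (SD, n = 6) in S2Bb on high salt. SS and S2Bb on normal salt were thus the groups with the most miR-195-5p per miR-497-5p, though every pair of groups compared overlapped.

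**Figure D3:**
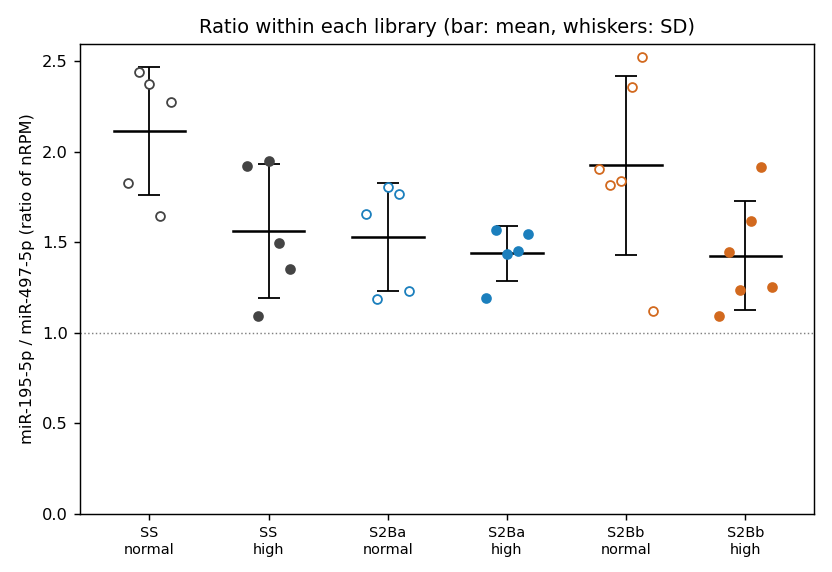
Ratio of miR-195-5p to miR-497-5p within each library (vertical axis, ratio of nRPM, linear), by strain and diet, with group means as bars and SD as whiskers. All 32 libraries lie above the dotted line at 1, and the means run from 1.43 in S2Bb on high salt to 2.11 in SS on normal salt.

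In log2 units, the ratio on high salt minus that on normal salt was -0.45 in SS (two-sided exact permutation p = 0.0476) and -0.41 in S2Bb (exact permutation p = 0.0779), against -0.07 in S2Ba (exact permutation p = 0.659). S2Ba minus SS on normal salt was -0.47 (exact permutation p = 0.0397). After Benjamini-Hochberg adjustment over the 14 ratio tests, the smallest adjusted p of these exact permutation tests was 0.333 and none passed 0.05. The smallest p that the designs allow was 0.00794 for 5 against 5 libraries and 0.00216 for the comparisons with S2Bb. The other 3 comparisons of this ratio differed by -0.16 to -0.09. The lowest ratio in SS on high salt, 1.09, was that of replicate 2. Without this library the log2 difference was -0.21 in place of -0.09 for S2Ba minus SS on high salt, -0.24 in place of -0.12 for S2Bb minus SS on high salt, and -0.33 in place of -0.45 for diet in SS. Without S2Bb normal-salt replicate 2 as well, diet in S2Bb was -0.42 and S2Bb minus SS on normal salt -0.15. None passed (exact permutation adjusted p of 0.485 to 0.833 with both left out). For the X-linked pair, miR-322-5p to miR-503-5p on log2(nRPM + 1) values, the differences ran from -0.27 to 0.20, with exact permutation p of 0.373 to 0.722. As miR-503-5p was at most 0.638 nRPM, the added 1 outweighed it. These differences therefore mostly follow miR-322-5p and do depend on scaling. Without both libraries the differences that included SS on high salt changed sign, to 0.03 for diet in SS, -0.10 for S2Ba minus SS and -0.05 for S2Bb minus SS.

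Between animals of a group, the chromosome 10 pair moved together. Deviations of miR-195-5p and miR-497-5p from their group means correlated with a Pearson r of 0.797 over the 32 libraries (permutation p = 1e-05, the smallest that 100000 resamples can give, adjusted p = 6e-05 over 6 pairs) and a Spearman rho of 0.644 (permutation p = 0.00015, adjusted p = 0.0009). Without the 2 libraries farthest from the median of miR-195-5p, r was 0.548. These were the same 2 that stood apart, and the group means still included them, so this value is no separate check. With group means taken anew, r was 0.521 without S2Bb normal-salt replicate 2 alone (permutation adjusted p = 0.0143). Without both libraries that stood apart, also with means taken anew, it was 0.442 (permutation adjusted p = 0.0861). The size of the correlation thus rests in large part on them.

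**Figure D4:**
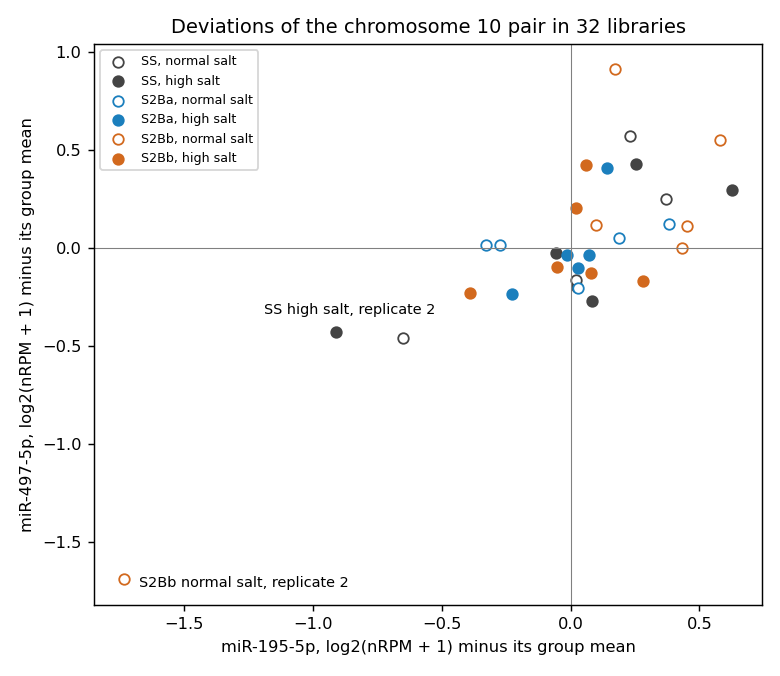
Deviation of miR-195-5p (horizontal axis) and miR-497-5p (vertical axis) from their group means, in log2(nRPM + 1), 1 point per library, open for normal and filled for high salt. The points rise together with r of 0.797, and S2Bb normal-salt replicate 2 lies alone at the lower left.

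The X-linked pair did not show such a relation. miR-322-5p and miR-503-5p correlated with r of 0.03 and rho of 0.03 (permutation p = 0.859 and 0.888, adjusted p = 0.859 and 0.888), at counts of miR-503-5p that counting error dominates. Without the 2 libraries farthest in miR-322-5p, r was -0.10. Wherever the 2 farthest were dropped, they were picked by 1 microRNA of the pair, and the group means still included them. Across the loci, miR-322-5p correlated with miR-195-5p at r of 0.08 (rho 0.14, permutation adjusted p = 0.791 and 0.519) and with miR-497-5p at r of 0.18 (rho 0.30, permutation adjusted p = 0.491 and 0.178). Without the 2 libraries farthest in miR-195-5p and in miR-497-5p respectively, those were 0.12 and 0.37. The settings without named libraries took group means anew. Without S2Bb normal-salt replicate 2 the correlation of miR-322-5p with miR-497-5p passed, at r of 0.46 (permutation adjusted p = 0.0270), and without both libraries that stood apart it was 0.40 (permutation adjusted p = 0.0873). With miR-195-5p it was 0.30 and 0.13 in those settings, and -0.06 without SS high-salt replicate 2 alone. Another 2 relations, both negative, passed for Pearson's r only. miR-503-5p correlated with miR-195-5p at r of -0.42 (permutation p = 0.0155, adjusted p = 0.0394) and rho of -0.26 (adjusted p = 0.229). That r was -0.14 without the 2 libraries farthest in miR-195-5p, which were those that stood apart. The r of miR-503-5p with miR-497-5p was -0.40 (permutation p = 0.0197, adjusted p = 0.0394) and rho -0.38 (adjusted p = 0.102). Without the 2 libraries farthest in miR-497-5p, S2Bb normal-salt replicates 2 and 6, that r was -0.40, but the group means still included them. With group means taken anew without S2Bb normal-salt replicate 2, where miR-503-5p had its highest count, the r with miR-195-5p and miR-497-5p were -0.29 and -0.26. Without SS high-salt replicate 2 they were -0.31 and -0.36, without both -0.06 and -0.16, and none of these passed.

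S2Bb normal-salt replicate 2 held less of every product of the chromosome 10 locus than the other libraries of its group. This library, with 27.5 M reads, was chosen for description because of these values. miR-195-5p stood at 212 nRPM (5319 reads) against 757 to 1058 nRPM in the other 5, and miR-497-5p at 117 nRPM (2930 reads) against 379 to 714 nRPM. The opposite arms were low as well, miR-195-3p at 8.06 nRPM against 23.5 to 34.5 nRPM, and miR-497-3p at 0.957 nRPM (24 reads) against 2.43 to 5.73 nRPM. Relative to the mean log2 value of the other 5 libraries, miR-195-5p was -2.08 and miR-497-5p -2.03, numbers 1 and 2 from the lowest among the 484 names tested, while miR-195-3p was -1.66 and miR-497-3p -1.30, numbers 3 and 5. Of the names with a mean of at least 10 nRPM, the next lowest were miR-411-5p at -1.39 and miR-127-3p at -1.26, both from the imprinted Dlk1-Dio3 region and named because of these values.

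The other family members were not low in that animal. miR-16-5p was 2192 nRPM against 1854 to 3074 nRPM in the other 5 libraries of the group, and its log2 difference was -0.07. miR-322-5p was 35.98 nRPM against 27.1 to 36.2 nRPM, a log2 difference of 0.29. miR-503-5p reached 0.638 nRPM, from 16 reads, the highest of all libraries. The share of family reads held by the chromosome 10 pair in this library was the lowest seen, 8.27% for miR-195-5p and 4.55% for miR-497-5p.

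**Figure D5:**
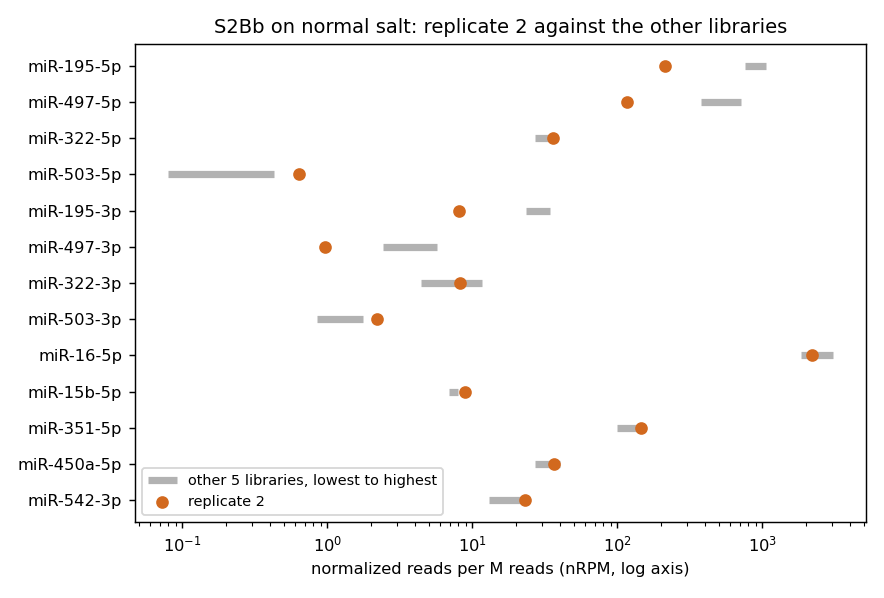
Levels of the members, their opposite arms and related microRNAs in S2Bb normal-salt replicate 2 (points) against the lowest-to-highest range of the other 5 libraries of that group (grey bars), in nRPM on a log axis. The 4 products of the chromosome 10 locus lie to the left of their bars, and miR-16-5p and miR-322-5p lie on theirs.

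With that library left out, miR-195-5p in S2Bb minus SS on normal salt was 0.05 in place of -0.30 on the log2 scale, and high salt minus normal salt of miR-195-5p in S2Bb was -0.25 in place of 0.10. For miR-497-5p, S2Bb minus SS on normal salt was 0.20 in place of -0.14. None of these passed with or without it. The signs of the last 2 also turned in edgeR, DESeq2 and limma-voom with the library kept, and that of miR-497-5p turned without SS normal-salt replicate 5, at 0.0071.

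The hairpins differed in which arm was kept. The 5p arm held 99.3% ± 0.265 (SD, n = 32) of the reads of both arms for miR-497 and 96.8% ± 1.49 (SD, n = 32) for miR-195. For miR-322 it held 81.0% ± 4.86 (SD, n = 32). For miR-503 the 5p arm held 14.5% ± 8.72 (SD, n = 32), with 178 reads against 1099 of miR-503-3p in all, and the 3p arm was the higher in all 32 libraries. The Mir503 hairpin is printed to show the arm that was rare here, with miR-503-5p in capitals (RefSeq, GRCr8, chrX:137725856-137725926, minus strand).
Mir503 hairpin: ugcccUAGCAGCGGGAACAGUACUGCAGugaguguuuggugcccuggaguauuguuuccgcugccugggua
The arm that carries the family-like seed was thus the less abundant product of this locus. The recovered reads of miR-503-5p were even numbers in 28 of the 30 libraries where it was above 0, and those of miR-503-3p in 29 of 32, whereas miR-195-5p was even in 15, miR-497-5p in 14 and miR-322-5p in 20 of 32 libraries. Over 682 names the median share of even counts was 50%, and 30 names (4.4%) had over 90% even counts. In the X-linked cluster, miR-351-3p was even in 18 of 18 libraries above 0 and miR-450a-3p in 13 of 13. There miR-322-3p was even in 24 of 32 libraries. By contrast, miR-351-5p was even in 11, miR-542-5p in 16, miR-542-3p in 10 and miR-450a-5p in 17 of 32. Whether reads of the X-linked locus were counted more than once was not tested.

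The opposite arms did not track their partners in one way. Over the 32 libraries, miR-195-3p correlated with miR-195-5p at r of 0.32 but a rho of -0.18, and miR-497-3p with miR-497-5p at r of 0.54 and rho of 0.39. None of the 4 opposite arms was called in any of the 10 comparisons, and neither were the family members miR-16-5p and miR-15b-5p, all with limma. As 0% to 13.4% of all names tested were called in these comparisons, such zeros are close to the background. The largest log2 difference of miR-16-5p was S2Ba minus SS on normal salt, at 0.31 ± 0.16 (SE) with a limma adjusted p of 0.375, where that of miR-497-5p was 0.69. Diet in SS was 0.29 ± 0.16 (SE) for miR-16-5p (limma adjusted p = 0.323) against 0.55 for miR-497-5p.

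The microRNAs whose levels were most like those of each member were picked by Pearson's r of log2 values over the 32 libraries, among 153 miRBase names with a mean of at least 10 nRPM. These are descriptions, and all names share the libraries' depth and scaling. For miR-195-5p they were miR-497-5p (r 0.77, or 0.50 without the 2 libraries that stood apart), miR-28-5p (0.66, or 0.66) and miR-335 (0.61, or 0.29). For miR-497-5p they were miR-195-5p, miR-335 (0.71, or 0.54) and miR-16-5p (0.66, or 0.88). By rank, miR-497-5p was closer to miR-16-5p of chromosome 2, with a rho of 0.85, than to its own cluster partner, with a rho of 0.51. For miR-322-5p they were miR-450a-5p (0.78, or 0.74) and miR-542-3p (0.67, or 0.61), both encoded in the same X-linked cluster, and miR-203a-3p (0.62, or 0.58). For miR-503-5p, miR-181a-1-3p (0.41, or 0.25), miR-340-5p (0.33, or 0.47) and miR-25-3p (0.32, or 0.24) came first, and its cluster partner miR-322-5p was number 52 with r of 0.09. Against log2 depth, r ran from -0.13 to 0.16 for the 4 members.

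Of the 8 listed X-linked neighbours from miR-351, miR-542 and miR-450, 4 were tested. In the averaged diet comparison all 4 had lower values on high salt, with a median log2 difference of -0.29 against -0.02 over all names tested, and 1 of the 4 fell past the test, against 13.4% of names. It was miR-542-3p, at -0.50 ± 0.16 (SE) with a limma adjusted p of 0.0432. That call held under 24 of 47 alternatives, over which the adjusted p ran from 0.00955 to 0.0992, and without both libraries that stood apart the difference was -0.36 with an adjusted p of 0.0623. Its level in SS high-salt replicate 2 was 3.14 nRPM from 10 reads, the lowest of all libraries. miR-322-5p had the same sign in that comparison, at -0.20, and did not pass. In the other 9 comparisons 0 of the 4 neighbours were called by limma, against 0% to 5.99% of names.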

How the data were processed

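The labels describe 36 samples from 6 strain and diet groups. The authors deposited a single table with 34 columns, which holds their normalized signal for each microRNA. Tools named without a role in the submitters' processing notes are STAR 2.3.1, edgeR 3.6.8, R 3.2.3, FastQC and bcl2fastq 1.8.4. Not given in the sources used here are the genome build, the annotation and the way of normalizing. All deposited signal values (100%) of a column were multiples of 1 smallest step within a tolerance of 1e-06. Dividing by it recovered whole reads, and the signal is given as normalized reads per M reads (nRPM). On high salt, replicate 3 of SS and replicate 2 of S2Ba were not analysed here, and 2 columns with identical values were left out, which leaves 32 libraries. Replicates are separate animals, numbered in accession order, and the labels name no batch.

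The filter kept 484 microRNAs that reached 1 nRPM in 5 or more libraries. They were transformed to log2(nRPM + 1), on which changes of rare microRNAs are understated. A single limma model (version 3.58.1, R 4.3.3) covered the 6 groups with an intensity trend in the variance, no covariate and Benjamini-Hochberg adjustment over all names tested, and a call means an adjusted p under 0.05. Since the values are normalized, limma was used, and edgeR 4.0.16, DESeq2 1.42.0 and limma-voom on recovered reads were alternatives. On recovered reads edgeR called 4 names for salt in SS, 3 in S2Ba, 35 in S2Bb and 71 in the average, 3 and 5 for S2Ba and S2Bb against SS on normal salt, 1 and 0 on high salt, and 0 and 3 for the differences of diet responses. The scripts were tested on simulated data. Ratios were compared by two-sided exact permutation tests and correlations by permutation tests with 100000 resamples (SciPy 1.17.1). The precision of rare microRNAs is set by depth, 2.31 to 42.4 M reads per library, and intervals at 3 reads cover counting error only.

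The text names the 4 members in every comparison, other microRNAs with a member's seed, the opposite arms, X-linked neighbours, and for each member the 3 names with the highest Pearson correlation. The members and lists were chosen with earlier results of these data known. Alternatives changed the scaling, pseudocount, filter, test, variance trend, groups in the fit and the identical library, and left out each library in turn.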

Additional observations from a re-analysis of the deposited data

Results flagged for a closer look

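Of 24 sets (4 members in 6 groups) examined for a library far from the rest, 3 held one, and of the 6 groups of the miR-195-5p to miR-497-5p ratio 0 did, where chance gives about 1 in 20. miR-195-5p was 212.2 nRPM in S2Bb normal-salt replicate 2, the lowest of 6 libraries, with the next at 757. miR-497-5p was 893.1 nRPM in S2Ba high-salt replicate 1, the highest of 5 libraries, with the next at 658. miR-322-5p was 70.42 nRPM in S2Ba normal-salt replicate 1, also the highest of 5, with the next at 34.97.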

How the results depend on the processing

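Each value of the 3 tested members in the 10 comparisons was recomputed under 47 alternatives. In 15 of 30 the sign held throughout, and the 15 with a change of sign had log2 differences of at most 0.30 in size. Values below are log2 differences. The cause of a change was not tested. Scaling by total reads moved the median of all names by 0.14 in SS on diet and by 0.17 in S2Ba minus SS on normal salt.

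High salt minus normal salt of miR-195-5p in S2Ba became 0.0058 under total-read scaling without miR-143-3p and 0.073 when the identical library stood in for S2Ba. In S2Bb it became -0.064 with edgeR, -0.098 with DESeq2, -0.035 with limma-voom and -0.25 without both libraries that stand apart, and averaged over strains -0.032 with DESeq2. Its S2Bb minus SS difference on normal salt became 0.048 without both libraries, and S2Ba minus SS on high salt -0.017 with edgeR, -0.0001487 with DESeq2, -0.085 with limma-voom and -0.18 without both. The S2Bb diet response minus that of SS became 0.020 under the scaling without miR-143-3p.

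For miR-497-5p, diet in S2Ba became -0.024 with size factors, -0.014 with edgeR, -0.020 with DESeq2 and -0.057 with limma-voom. S2Bb minus SS on normal salt became 0.00059 without miR-143-3p in the total, 0.056 with edgeR, 0.023 with DESeq2, 0.0029 with limma-voom and 0.20 without both libraries, and S2Ba minus SS on high salt -0.0049 with limma-voom. For miR-322-5p, diet in S2Bb became -0.018 with size factors and -0.014 with DESeq2. Its ratio to miR-503-5p without both libraries became 0.030 for diet in SS, -0.10 for S2Ba minus SS and -0.054 for S2Bb minus SS on high salt.

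Leaving out each library in turn, miR-195-5p ran from -0.062 to 0.33 for diet in SS, -0.15 to 0.027 in S2Ba, -0.25 to 0.21 in S2Bb and -0.073 to 0.12 on average. It ran from -0.46 to 0.048 for S2Bb minus SS on normal salt, -0.18 to 0.20 for S2Ba minus SS on high salt and -0.35 to 0.16 for the S2Bb diet response minus that of SS. miR-497-5p ran from -0.098 to 0.062 for diet in S2Ba, -0.32 to 0.20 for S2Bb minus SS on normal salt and -0.38 to 0.14 for the S2Bb response. miR-322-5p ran from -0.0087 to 0.093 for diet in S2Bb, -0.032 to 0.29 and -0.0072 to 0.30 for S2Ba minus SS on normal and high salt, and -0.19 to 0.17 for the S2Ba response. Its ratio to miR-503-5p ran from -0.34 to 0.030 for diet in SS, -0.020 to 0.20 in S2Bb, -0.26 to 0.019 for S2Bb minus SS on normal salt, and -0.10 to 0.24 and -0.054 to 0.28 for S2Ba and S2Bb minus SS on high salt. When either library that stands apart was left out, correlations of miR-322-5p ran from -0.056 to 0.30 with miR-195-5p, -0.016 to 0.18 with miR-503-5p and 0.12 to 0.46 with miR-497-5p, the last passing without S2Bb normal-salt replicate 2 (permutation adjusted p = 0.0270).

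Without both libraries that stand apart, 1 member (miR-497-5p) was called for S2Ba minus SS on normal salt in place of 0. In that setting limma called 12 of 478 names for this comparison, against 2 of 484 with all libraries. Of the 6 correlations between members 3 passed. That became 1 under total-read scaling, 1 with a pseudocount of 0.5, 0 without both libraries, and 1 to 2 when S2Bb normal-salt replicate 2 or SS high-salt replicate 2 was left out. Depth limits miR-503-5p most. No paired analysis was made, because each library is from a separate animal and the labels name no pairing. The labels give no replicate numbers, and those used here follow accession order.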
